A study of Homo sapiens with 2 samples.

Results

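The genes described here are 9 of the 58735 genes in the deposited count table, chosen by gene symbol as genes linked to p53 or as sestrins. They are CDKN1A, GDF15, the sestrin genes SESN1, SESN2 and SESN3, and MDM2, ZMAT3, RRM2B and TP53I3. RNA-seq was done on 1 library of cells with the treatment label NC, called untreated here, and 1 library of cells treated with dihydroartemisinin (DHA). Both came from a derivative of the human pancreatic adenocarcinoma line SUIT-2 with high metastatic potential, and the labels give no further genotype, dose, exposure time or vehicle. DHA is the active metabolite of the artemisinin antimalarials. The study asked which genes respond to DHA in pancreatic cancer cells. With 1 library a group there is no replicate check and no test. Higher and lower always refer to the DHA library set against the untreated one, and each interval covers counting error only.

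The transcription factor p53 is held low by the ubiquitin ligase MDM2, which is itself a p53 target, so that the pair forms a feedback loop. When DNA damage or other stress frees p53, it switches on genes that halt the cell cycle, repair DNA, limit oxidants or start apoptosis. Several of these genes also answer to other factors. SESN2 and GDF15 are known to be induced through ATF4 in the integrated stress response, SESN2 through NRF2, SESN1 and SESN3 through FOXO factors, and CDKN1A through many factors that do not need p53.

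Promoters are shown for the 3 members with the highest ratios, SESN2, CDKN1A and GDF15, and for SESN1 and SESN3, since the 3 sestrin genes had different ratios. Each sequence lies within the 250 bases before the RefSeq gene start (GRCh38.p14), 5′ to 3′ on the gene's strand, limited to bases outside the gene's annotated exons. For GDF15, where exons of longer transcripts cover 241 of the 250 bases, the last 30 bases are given. SESN2 is shown from chr1:28259268-28259517 (plus strand), SESN1 from chr6:109094847-109095096 (minus), SESN3 from chr11:95232542-95232725 (minus), CDKN1A from chr6:36678464-36678657 (plus) and GDF15 from chr19:18386128-18386157 (plus). Capitals mark GC boxes (GGGCGG on either strand) and a TATA box (TATAAA).
SESN2: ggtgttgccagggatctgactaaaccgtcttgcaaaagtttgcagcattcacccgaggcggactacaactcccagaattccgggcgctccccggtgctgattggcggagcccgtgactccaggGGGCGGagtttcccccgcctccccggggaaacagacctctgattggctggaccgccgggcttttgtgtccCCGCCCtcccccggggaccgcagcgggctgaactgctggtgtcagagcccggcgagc
SESN1: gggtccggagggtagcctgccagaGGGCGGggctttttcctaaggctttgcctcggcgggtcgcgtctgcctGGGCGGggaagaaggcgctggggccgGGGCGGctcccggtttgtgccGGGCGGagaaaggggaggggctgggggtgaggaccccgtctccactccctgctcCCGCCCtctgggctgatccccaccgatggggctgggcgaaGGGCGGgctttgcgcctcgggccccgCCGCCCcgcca
SESN3: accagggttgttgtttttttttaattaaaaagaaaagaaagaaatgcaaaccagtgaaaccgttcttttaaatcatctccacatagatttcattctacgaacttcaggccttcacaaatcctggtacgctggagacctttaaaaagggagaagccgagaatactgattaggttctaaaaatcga
CDKN1A: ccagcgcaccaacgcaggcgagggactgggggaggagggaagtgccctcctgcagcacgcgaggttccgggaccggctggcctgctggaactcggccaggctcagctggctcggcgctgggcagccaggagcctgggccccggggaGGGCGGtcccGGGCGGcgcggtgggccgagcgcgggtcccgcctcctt
GDF15: cTATAAAggccggtccggcagcatctggtc

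The windows of 250 bases differed in kind. CDKN1A had 4 GC boxes in its window, of which 2 lie in the stretch shown, SESN1 had 7, SESN2 and GDF15 had 2 each and SESN3 had 0. A GC box was present in 42.6% of 35116 RefSeq promoter windows of the same length. GDF15 was the only member with TATAAA, which 10.7% of windows held, and it also had 1 FOXO motif (GTAAACA), which 2.98% held. The G and C content was 76.4% for CDKN1A, 74.4% for SESN1, 65.6% for SESN2, 58.4% for GDF15 and 42.8% for SESN3, against a median of 58.0% over all windows. Other motifs searched on both strands were the ATF4 composite site (TGATGNAA), the antioxidant response element (TGACNNNGC), AP-1 (TGANTCA), the cyclic AMP response element (TGACGTCA) and the p53 decamer consensus. They were found in 0 of the 8 members with a RefSeq window and in 3.14%, 10.9%, 6.57%, 1.65% and 5.57% of all windows. RRM2B had no entry in the RefSeq promoter table. A match or its absence describes these letters in these windows, and known distal p53 sites, such as those of CDKN1A, lie outside them.

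Counted reads numbered 15452609 (untreated) and 14521101 (DHA). All 9 members had more than the 50 reads in at least 1 library asked of a gene before it was called. A call also needed a ratio of 2-fold or more and a counting interval that left out 1. By that rule 811 (6.72%) of the 12064 genes with enough reads were higher under DHA and 1245 (10.3%) were lower. Of the 9 members, 3 were called higher, SESN2, CDKN1A and GDF15, and 0 lower. Their median log2 ratio was 0.70, beside 0.04 over all 12064 genes, and 8 of 9 had a log2 ratio above 0, as did 52.2% of all genes. That of SESN1 was 0.02 and fell below 0 with upper-quartile scaling, DESeq2 size factors, scaling on protein-coding genes or the length and GC trend removed, which leaves 7 of 9. The members were chosen with earlier results of these data known, so their median and shares are a description and no test. Of 8 pancreatic ductal epithelium markers, 6 had at least 50 reads without DHA and 4 with it, and their summed level was 3326 CPM (counts per 1000000 scaled reads) untreated and 1313 with DHA. KRT8 had 29850 and 11840 reads, EPCAM 1396 and 249, and CDH1, the E-cadherin gene, 933 and 23 (37.6-fold lower, 25.4 to 60.9). KRT7 had 49 and 26 reads, under the minimum in both libraries. S100P went the other way, with 0 and 10 reads, also under the minimum. Retina, which the extraction protocol names, had 3 of 6 markers at 0 in both libraries, CRX among them, and a sum of 5.65 and 4.25 CPM. Sums were 6.76 and 0.823 CPM for 5 fibroblast markers (3 at 0 in both, DCN among them), 18.3 and 3.91 for 3 endothelial markers (CDH5 at 0) and 2.14 and 1.37 for 4 leukocyte markers (PTPRC at 0). The most abundant markers of these sets were not at 0. PECAM1 (endothelial) had 280 and 54 reads, and COL1A1 (fibroblast) had 83 and 11. OPN1SW (retina) had 61 and 49 reads, and LYZ (leukocyte) had 22 and 12. The ductal sum differed between the libraries with the results below, and its part in them was not tested.

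**Figure D1:**
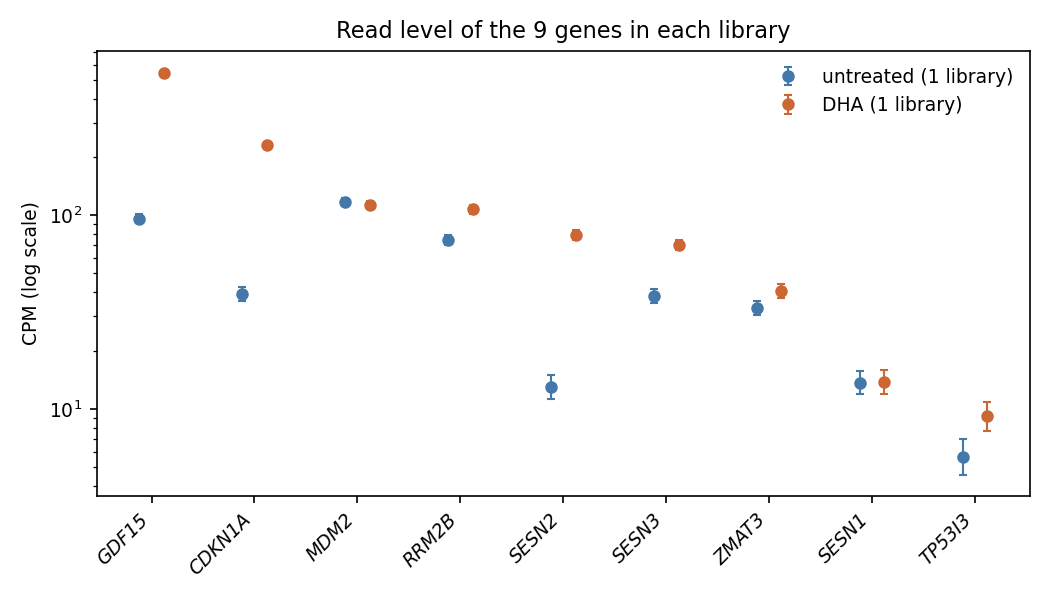
Level of each of the 9 genes in the untreated and the DHA library, in CPM on a log axis; bars are exact 95% Poisson intervals of the read count. GDF15, CDKN1A and SESN2 are far apart between the libraries, and the points of MDM2 and SESN1 lie within each other's intervals.

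CDKN1A encodes p21, the inhibitor of cyclin-dependent kinases that arrests the cell cycle. The gene (ENSG00000124762, GRCh38 chromosome 6, 36676460 to 36687339, plus strand) had 603 reads without and 3354 reads with DHA. These are 39.2 CPM (95% interval 36.1 to 42.4) and 230.1 CPM (222 to 238). The DHA library was thus 5.87-fold higher (5.38 to 6.42), the rank of 55 among the 12064 genes. Of its exon length, 4.79% overlaps the antisense gene DINOL, so reads of the 2 could mix if strand was not used in counting. Per exon length, CDKN1A went from 12.8 to 75.4 RPKM (CPM divided by exon length in kilobases), from above 71.1% of the 12064 genes to above 96.2%.

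Genes for the kinases and cyclins that p21 acts on were mostly below a ratio of 1. Of 15 measured genes for other cyclins, cyclin-dependent kinases, their inhibitors and the p21 partner PCNA, 0 were called higher and 3 lower (20%), beside 6.72% and 10.3% of all genes, around a median log2 ratio of -0.46. The lower ones were PCNA, the sliding clamp of DNA polymerase, at 2664 and 832 reads (3.03-fold lower, 2.80 to 3.28), the kinase inhibitor gene CDKN2C (2.28-fold, 2.05 to 2.53) and the S phase cyclin gene CCNE2 (2.03-fold, 1.60 to 2.60). With a length and GC trend taken out, CCNE2 missed 2-fold (log2 ratio -0.996), and 37.1% of its exon length overlaps genes on the other strand. CDK2, the main kinase target of p21, had 1615 and 1459 reads and a log2 ratio of -0.07. Within a library the ratio of 2 genes does not depend on scaling. The RPKM of CDKN1A was 0.477 times that of CDK2 (0.433 to 0.524) in the untreated library and 2.93 times (2.76 to 3.12) in the DHA library. Against its paralog CDKN1B, which encodes p27 and had a log2 ratio of -0.13, it went from 0.521 times (0.471 to 0.576) to 3.34 times (3.10 to 3.59). The cyclin D1 gene CCND1 was nearer to CDKN1A in direction, with 6739 and 10573 reads and a log2 ratio of 0.73, and its RPKM stayed above that of CDKN1A in both libraries.

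Through p21, p53 represses cell cycle genes by way of the DREAM complex, made of RB-like proteins, E2F factors and the MuvB core. Of 11 measured genes of this complex and its activator counterparts, 0 were called higher and 1 lower (9.09%), beside 6.72% and 10.3% of all genes, with a median log2 ratio of -0.40. The lower one was RBBP4, a histone-binding subunit shared with other chromatin complexes (2.35-fold lower, 2.22 to 2.48). TFDP1, the dimer partner of E2F, had a log2 ratio of -0.81, MYBL2 had -0.58, E2F5 -0.44 and LIN54 0.60.

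GDF15 encodes a secreted cytokine of the TGF-beta superfamily that is released by stressed cells and acts on the brainstem receptor GFRAL with RET. The gene (ENSG00000130513, chromosome 19, 18374731 to 18389176, plus strand) had 1479 reads without and 7926 reads with DHA, or 96.1 (91.2 to 101) and 544 (532 to 556) CPM. It was 5.66-fold higher (5.35 to 5.99), and 0% of its exon length overlaps other annotated genes. With 46.0 and 260.5 RPKM it had the highest level per length of the 9 genes in both libraries. In the DHA library this was above 99.3% of the 12064 genes. GFRAL and RET had 0 reads in both libraries, which allows up to 0.195 CPM (untreated) and 0.206 CPM (DHA). The proprotein convertases that cut TGF-beta family precursors were measured too. FURIN had 859 and 1050 reads (log2 ratio 0.37), PCSK7 had 0.52, PCSK5 0.82, PCSK6 -0.81 and the site-1 protease gene MBTPS1 -0.03. Of these 5 genes 0 were called in either direction, beside 17.0% of all genes.

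The ratios of CDKN1A, GDF15 and SESN2 lay close together, although their levels did not. The RPKM of GDF15 was 3.58 times that of CDKN1A (3.26 to 3.95) in the untreated and 3.45 times (3.32 to 3.60) in the DHA library. This ratio differed between libraries by a factor of 0.963 (0.868 to 1.07). The factor was 1.03 (0.865 to 1.23) for SESN2 over CDKN1A and 1.07 (0.910 to 1.26) for SESN2 over GDF15. All 3 intervals include 1, so the 3 folds were not told apart at this depth, which leaves room for differences as large as the ends of those intervals.

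**Figure D2:**
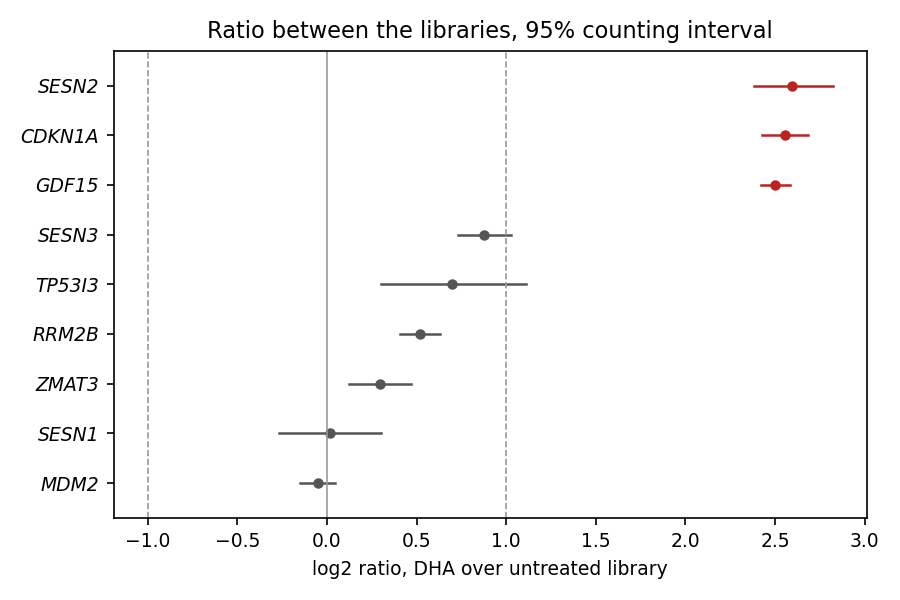
Log2 ratio of the DHA over the untreated library for each of the 9 genes with its 95% counting interval; dashed lines mark 2-fold. SESN2, CDKN1A and GDF15 (red) lie between 2.50 and 2.60, and the other 6 genes between -0.05 and 0.88.

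Sestrins are stress-induced proteins that restrain the growth kinase mTORC1. SESN2 binds leucine and, without it, holds back the GATOR2 complex. SESN2 (ENSG00000130766, chromosome 1, 28259527 to 28282491, plus strand) had 200 reads without and 1147 reads with DHA, or 13.0 CPM (11.3 to 14.9) and 78.7 CPM (74.2 to 83.4). It was 6.04-fold higher (5.21 to 7.07), the highest ratio of the 9 genes. SESN3 (ENSG00000149212, chromosome 11, 95165513 to 95232541, minus strand) had 589 and 1024 reads, or 38.3 and 70.3 CPM. It was 1.84-fold higher (1.66 to 2.04), short of the 2-fold needed for a call. SESN1 (ENSG00000080546, chromosome 6, 108986437 to 109094819, minus strand) had 210 and 201 reads, or 13.6 and 13.8 CPM. Its ratio was 1.01 (0.829 to 1.23), and its sign depended on the scaling, with log2 ratios from -0.05 to 0.03.

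In the untreated library the sestrins were within a narrow range per length, at 3.76 RPKM for SESN2, 3.62 for SESN3 and 2.66 for SESN1. SESN2 and SESN3 were not told apart there, with a ratio of 1.04 (0.881 to 1.22). In the DHA library they spread to 22.8, 6.64 and 2.69 RPKM. The ratio of SESN2 to SESN1 went from 1.41 (1.16 to 1.72) to 8.46 (7.28 to 9.88), a difference of 5.99-fold (4.65 to 7.71). That of SESN2 to SESN3 differed by 3.30-fold (2.74 to 3.97) and that of SESN3 to SESN1 by 1.82-fold (1.45 to 2.27). The 3 sestrin genes thus differed from each other in their ratio by more than counting error.

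Downstream of the sestrins lie the GATOR complexes, the Rag GTPases with their Ragulator anchor, the TSC complex and mTORC1. Of 33 measured genes of this pathway 2 were called higher (6.06%) and 1 lower (3.03%), beside 6.72% and 10.3% of all genes, and the median log2 ratio was 0.10. RRAGC, which encodes a Rag GTPase, was 2.73-fold higher (2.45 to 3.06), with 22.9% of its exon length shared with another gene on its strand. DDIT4, which encodes the mTORC1 inhibitor REDD1, had 815 and 2608 reads and was 3.38-fold higher (3.12 to 3.66). Of its exon length 41.2% overlaps the antisense gene DDIT4-AS1. The paralog DDIT4L had 50 and 5 reads and was 8.69-fold lower (3.80 to 30.4). TSC1 and RRAGD had log2 ratios of 0.88 and 0.85. SESN2 binds GATOR2, and its 5 subunit genes MIOS, SEH1L, SEC13, WDR24 and WDR59 had log2 ratios of 0.51, -0.31, 0.12, 0.08 and 0.10. Sestrins are also linked to the energy-sensing kinase AMPK. Among 10 genes for AMPK subunits, upstream kinases and their partners 0 were called, beside 17.0% of all genes in either direction. The median log2 ratio was 0.11, and PRKAB2, PRKAA2, CAB39, STK11 and PRKAB1 had 0.77, 0.58, 0.55, -0.28 and -0.24.

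**Figure D3:**
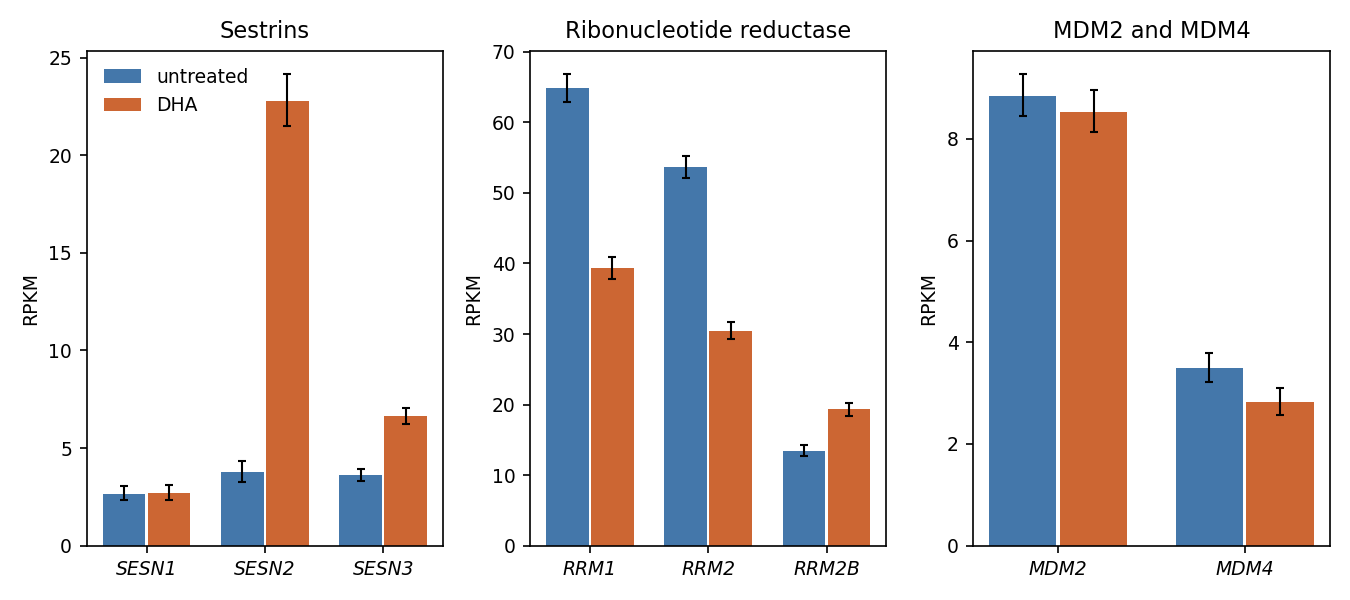
RPKM of the sestrin genes, the ribonucleotide reductase subunit genes and MDM2 with its partner gene MDM4 in the untreated and the DHA library; bars start at 0 and error bars are exact 95% Poisson intervals of the read count. SESN2 stands out among the sestrins in the DHA library, RRM1 and RRM2 are lower while RRM2B is higher, and MDM2 is near-equal in both.

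MDM2 (ENSG00000135679, chromosome 12, 68808176 to 68850686, plus strand), the ligase that marks p53 for degradation, had 1810 reads without and 1652 reads with DHA. These are 118 (112 to 123) and 113 (108 to 119) CPM, a ratio of 0.964 (0.901 to 1.03). The ratio of CDKN1A to MDM2 went from 1.45 (1.32 to 1.59) to 8.84 (8.33 to 9.38), a difference of 6.09-fold (5.46 to 6.81). MDM4, which encodes the partner of MDM2 that blocks p53, had 591 and 454 reads and a log2 ratio of -0.30. Per length, MDM2 stood at 2.54 times MDM4 (2.31 to 2.79) in the untreated and 3.02 times (2.72 to 3.35) in the DHA library, a difference of 1.19-fold (1.03 to 1.37). Of the exon length of MDM2, 9.21% overlaps other genes, CPM, which encodes carboxypeptidase M, among them.

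Of 19 measured genes for relatives and regulators of p53, 0 were called higher and 2 (10.5%) lower, beside 6.72% and 10.3% of all genes. Their median log2 ratio was 0.01. The lower ones were the damage kinase gene CHEK2, at 201 and 86 reads (2.21-fold, 1.71 to 2.88), and the p53 relative TP73, at 274 and 127 (2.04-fold, 1.65 to 2.54). The other relative, TP63, had 0 reads in both. PPP1R13L, which encodes the p53 inhibitor iASPP, had 353 and 663 reads and a log2 ratio of 0.99, and the acetyltransferase genes EP300 and CREBBP had 0.66 and 0.62.

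RRM2B encodes p53R2, a small subunit of ribonucleotide reductase that supplies deoxynucleotides for repair and mitochondrial DNA outside S phase. The gene (ENSG00000048392, chromosome 8, 102204502 to 102239118, minus strand) had 1150 and 1561 reads, or 74.7 and 107 CPM, and was 1.43-fold higher (1.33 to 1.55). Its S phase counterpart RRM2 had 4395 and 2363 reads (log2 ratio -0.82) and the large subunit gene RRM1 had 4168 and 2395 (-0.72). The RPKM of RRM2 was 3.98 times that of RRM2B (3.73 to 4.25) in the untreated and 1.58 times (1.48 to 1.68) in the DHA library, with 20.2% of the exon length of RRM2 shared with another gene on its strand. All 11 measured genes of ribonucleotide reduction and deoxynucleotide supply other than RRM2B were below 0 on the log2 ratio scale (median -0.52); the nearest to 0 was DCTD at -0.03. Called lower were 3 (27.3%, beside 10.3% of all genes), DUT, which removes dUTP (4.0-fold, 3.60 to 4.46), TYMS, the thymidylate synthase gene (2.43-fold, 2.14 to 2.77), and TK1, the S phase thymidine kinase gene (2.32-fold, 2.15 to 2.51). Of the exon length of TYMS 46.6% overlaps genes on the other strand.

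TP53I3 encodes PIG3, a quinone oxidoreductase that p53 induces through a repeat in the gene. It (ENSG00000115129, chromosome 2, 24077433 to 24085861, minus strand) was the scarcest member by reads, with 87 and 134, or 5.65 (4.53 to 6.97) and 9.19 (7.70 to 10.9) CPM. The ratio was 1.62 (1.23 to 2.16), and the interval reaches past 2-fold. Among 7 measured relatives and other quinone and enone reductases 0 were called, beside 17.0% of all genes, and the median log2 ratio was -0.05. NQO1, the abundant quinone reductase of the NRF2 response, had 14326 and 20316 reads (0.58), VAT1 0.29, NQO2 0.12, the zeta-crystallin gene CRYZ, of the same enzyme family, -0.28 and PTGR1 -0.59. The RPKM of TP53I3 was 0.00855 times that of NQO1 in the untreated and 0.00928 times in the DHA library, a difference of 1.09-fold (0.822 to 1.44).

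ZMAT3 encodes a zinc finger protein that binds RNA and regulates splicing downstream of p53. The gene (ENSG00000172667, chromosome 3, 179017223 to 179072279, minus strand) had 511 and 593 reads, or 33.2 (30.4 to 36.2) and 40.7 (37.5 to 44.1) CPM. The ratio was 1.23 (1.09 to 1.38), above 1 by more than counting error and short of 2-fold. Of the 4 other ZMAT genes, ZMAT2 and ZMAT5 had enough reads, with log2 ratios of 0.03 and 0.29.

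Ordered by RPKM, the untreated library ran GDF15, RRM2B, CDKN1A, MDM2, SESN2, SESN3, ZMAT3, SESN1 and TP53I3. Neighbours whose ratio had an interval including 1 were RRM2B and CDKN1A (1.05, 0.949 to 1.16), SESN2 and SESN3, SESN3 and ZMAT3 (1.05, 0.932 to 1.19), and SESN1 and TP53I3 (1.09, 0.845 to 1.42). In the DHA library the order was GDF15, CDKN1A, SESN2, RRM2B, MDM2, SESN3, ZMAT3, TP53I3 and SESN1. There the levels ran from 260.5 to 2.69 RPKM, and ZMAT3 and TP53I3 (1.06, 0.878 to 1.29) were the pair not told apart. SESN2 moved from place 5 to place 3, past RRM2B and MDM2. These levels use the union of all annotated exons as length, which overstates the length of most transcripts of genes with many isoforms, such as MDM2 with 34 annotated transcripts against 1 for SESN2.

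A wider list of 45 p53 targets, also chosen with earlier results of these data known, holds 8 of the members, all but SESN3. Of its genes 40 had enough reads, and 11 (27.5%) were called higher and 2 (5%) lower. The median log2 ratio was 0.02, beside 0.04 for all genes, and both signs turned with upper-quartile scaling (-0.04 and -0.03) and with DESeq2 size factors (-0.01 and -0.002). The values were 0.05 and -0.01 with a minimum of 10 reads, 0.03 and 0.04 with 1 read, and 0.29 and 0.10 with 500 reads, where 23 of the targets were left. Of the 37 genes that are not members, 32 had enough reads, with 8 higher (25%), 2 lower and a median of -0.03. These counts stand beside 6.72% higher and 10.3% lower among all genes, and describe the 2 libraries without a test.

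Growth arrest genes held 4 of the higher calls among 8 measured (50%), beside 6.72% of all genes. The grouping by role was made after the values were seen. Besides CDKN1A these were SERTAD1, which encodes a CDK4-binding protein (98 and 435 reads, 4.67-fold, 3.76 to 5.90), the damage-induced GADD45A (581 and 1882, 3.42-fold, 3.12 to 3.76) and the kinase gene PLK3 (2.75-fold, 2.30 to 3.33). Its relative PLK2 had 3190 and 1610 reads and a log2 ratio of -0.91, and the cyclin G1 gene CCNG1, a classic p53 target, had 6118 and 3473 reads and -0.74. Of 10 measured death receptor and apoptosis genes 4 were higher (40%), beside 6.72% of all genes. TNFRSF10B, which encodes the TRAIL receptor DR5, had 993 and 3634 reads (3.86-fold, 3.60 to 4.15), and the decoy receptor gene TNFRSF10D had 566 and 1400 (2.61-fold, 2.37 to 2.89). TP53INP1 and SUSD6 were 2.06-fold and 2.04-fold higher, but upper-quartile scaling took both below that fold (0.98 and 0.96 on the log2 scale), and DESeq2 size factors took SUSD6 below it (0.99). The apoptosis effector BAX had 769 and 719 reads and -0.02, the death receptor gene FAS had -0.20, and BBC3, which encodes PUMA, had 42 and 48 reads, under the minimum.

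In the same grouping by role, 0 of 5 repair genes and 0 of 2 feedback genes were called, beside 17.0% of all genes. Among 5 genes of DNA repair and nucleotide supply the log2 ratios were 0.52 for RRM2B, 0.29 for ASCC3, 0.06 for POLH, -0.002 for XPC and -0.86 for the damage recognition gene DDB2. PPM1D, which encodes the phosphatase that shuts off p53 signalling, had 492 and 452 reads and -0.04, next to -0.05 for MDM2. The 2 lower genes were KITLG, the ligand gene of the receptor KIT, at 6840 and 1007 reads (6.43-fold, 6.02 to 6.88), and the lysosomal fucosidase gene FUCA1 (2.70-fold, 2.25 to 3.26). ABHD4, a lipase gene, was 2.41-fold higher (2.11 to 2.78).

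**Figure D4:**
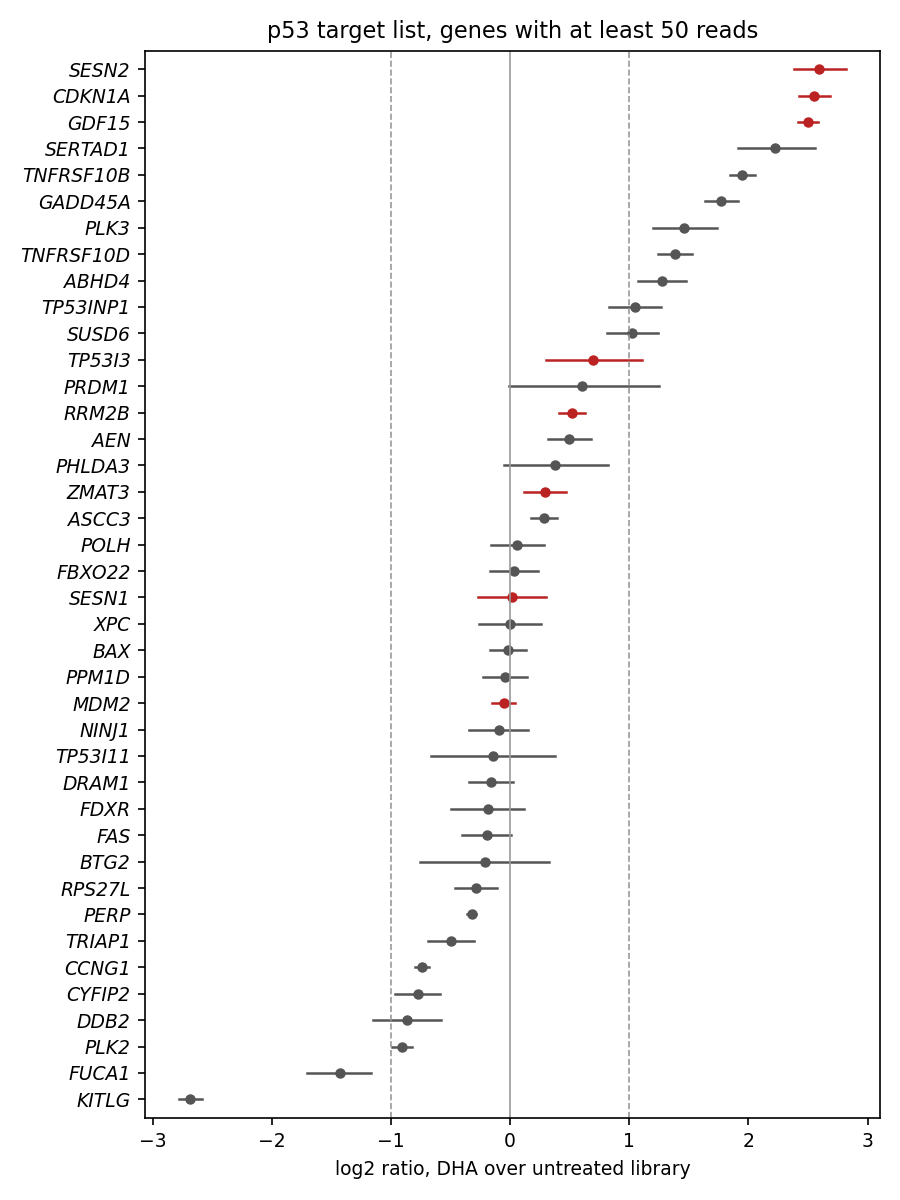
Log2 ratio of the DHA over the untreated library with 95% counting intervals for the 40 p53 target genes that passed the read minimum; members are red and dashed lines mark 2-fold. The highest are SESN2, CDKN1A and GDF15, and MDM2, BAX, PPM1D and SESN1 lie close to 0.

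A list of stress transcription factors, with TRIB3, was read from the same table. It was chosen with earlier results of these data known, so its share of calls is a description and no test. Of its 16 genes 10 (62.5%) were called higher and 0 lower, beside 6.72% and 10.3% of all genes, with a median log2 ratio of 1.14. ATF4, the central factor of the integrated stress response, had 2177 and 5763 reads (2.80-fold, 2.66 to 2.94). ATF3 had 44 and 270 reads (6.42-fold, 4.70 to 9.13) and DDIT3, which encodes CHOP, 336 and 1736 (5.45-fold, 4.85 to 6.15). For DDIT3 39.6% of the exon length overlaps other genes on either strand. CEBPB was 4.82-fold higher (4.51 to 5.17), TRIB3, which encodes a pseudokinase that binds ATF4, 4.32-fold (3.98 to 4.70) and KLF6 3.22-fold (3.02 to 3.44). Of the FOXO genes, FOXO3 had 813 and 1622 reads (2.11-fold higher, 1.94 to 2.30). FOXO4 had 41 and 73 reads (ratio 1.87, 1.27 to 2.83) and FOXO1 285 and 216 (log2 ratio -0.32), and neither was called. NFE2L2, which encodes NRF2, had 1422 and 2037 reads and 0.60.

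**Figure D5:**
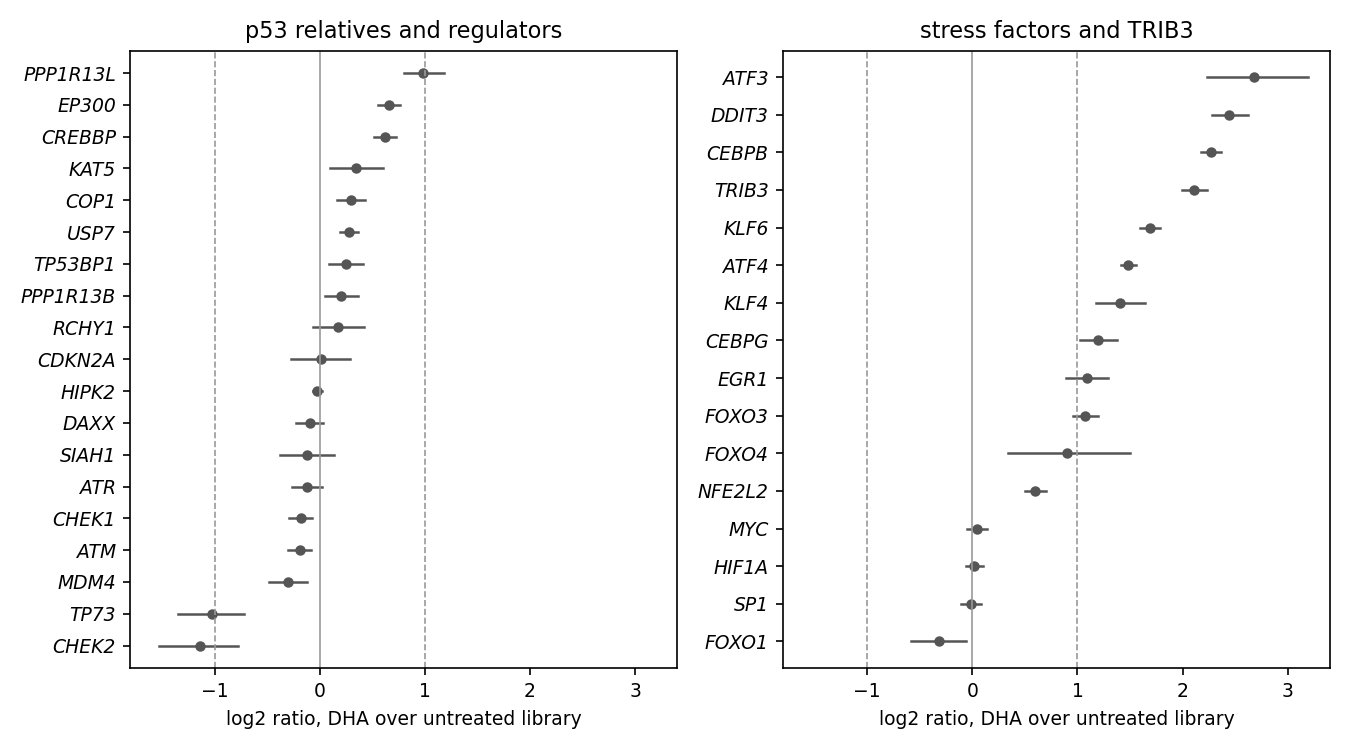
Log2 ratio of the DHA over the untreated library with 95% counting intervals for relatives and regulators of p53 (left, 19 genes) and for stress transcription factors with TRIB3 (right, 16 genes); dashed lines mark 2-fold. CHEK2 and TP73 are lowest on the left, and ATF3, DDIT3, CEBPB and TRIB3 are highest on the right.

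Genes with the pattern most like each of the 3 higher members were sought among 11216 other protein-coding genes, by the distance between log2 RPKM values over the 2 libraries. Nearest to CDKN1A were TRIB3 (distance 0.38; 13.4 and 58.1 RPKM), KLHL21 (0.39; 13.9 and 58.2) and DDIT3 (0.47; 16.7 and 91.1). Nearest to GDF15 were the collagenase gene MMP1 (0.15; 46.4 and 288 RPKM), the autophagy receptor gene SQSTM1 (0.32; 55.2 and 231) and ERRFI1 (0.55; 64.7 and 221). SESN2 was closest to the autophagosome gene GABARAPL1 (0.20; 4.21 and 21.1 RPKM), CSRNP1 (0.36; 4.47 and 19.02) and RUSC2 (0.41; 4.04 and 17.3). With 2 libraries such likeness rests on a pair of values per gene. In bulk RNA, a higher level in every cell and a larger share of cells with a high level cannot be told apart.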

How the data were processed

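Total RNA of 2 cell cultures was sequenced, 1 library a group, after Trizol extraction and an Illumina TruSeq preparation per the labels' protocols. The authors deposited whole-number read counts per gene, not normalized, and gene lengths in bases. Aligner, counter and use of strand: not given in the sources used here. In the submitters' processing notes stands mm8, a mouse build, but all 58735 rows matched GENCODE release 29 (human, GRCh38) in identifier, coordinates and name, and the lengths equal its exon unions.

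Groups came from the treatment label. Counts were scaled by TMM (edgeR 4.0.16, R 4.3.3; factors 0.996 and 1.00), and the log2 ratio was taken after adding 0.5 reads. Intervals of ratios are exact Clopper-Pearson 95% intervals and those of levels are exact Poisson intervals. Both cover counting error only. A count of 0 allows up to 3 reads. CPM and RPKM were computed here. The members and the 11 gene lists (185 entries, all matched) were chosen with earlier results of these data known. Genes named are the members, up to 5 genes of each list with the largest absolute ratio, a fixed set of partners and regulators, and the 3 nearest genes. A few genes of the fixed sets are not reported here. Chosen after their values were seen were GADD45A, TNFRSF10B, TNFRSF10D, PLK2, PLK3, ABHD4, TP53INP1, SUSD6, FUCA1, CCNG1, BAX, BBC3, FAS, PPM1D and ASCC3. Also chosen then were POLH, XPC, DDB2, TP63, CDKN1B, GFRAL, RET, DCTD, FOXO4, the named cell type markers and the GATOR2 genes. The call rule was tested on simulated Poisson counts with planted changes larger than 2-fold and no variation between cultures. That test therefore does not cover such variation. Alternatives were other scalings (DESeq2 1.42.0 size factors among them), pseudocounts, read minimums, intervals and fold thresholds. Removal of a length and GC trend (statsmodels 0.14.6) was added after the data had been seen.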

Additional observations from a re-analysis of the deposited data

How the results depend on the processing

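The 3 higher members, SESN2, CDKN1A and GDF15, stayed above 2-fold under every scaling, pseudocount, read minimum and interval tried, and above 4-fold. Their log2 ratios ranged from 2.53 to 2.65, 2.49 to 2.64 and 2.44 to 2.67. With a 1.5-fold threshold 5 members were higher, SESN3 and TP53I3 in addition. SESN1 and TP53I3 had too few reads at a minimum of 500. Of 97 recomputed member ratios 96 lay within the counting interval, and that of GDF15 with the length and GC trend removed (2.67) lay above it. A read minimum does not enter a ratio. The ratios counted under other minimums therefore equal the main ones by construction and are no check. Of the p53 targets 4 were higher and 1 lower at 4-fold, 6 were lower at 1.5-fold, and 1 was lower with a minimum of 500 reads. Over all genes 1297 were higher and 2126 lower with a minimum of 10 reads, 1432 and 2386 with 1 read, and 431 and 379 with 500. At 1.5-fold these were 2284 and 2320, and at 4-fold 110 and 340. The changes of count follow from the genes each minimum or threshold admits. No paired analysis was possible because each group has 1 library. Variation between cultures was not measured.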
